A study of Rattus norvegicus with 42 samples.

Results

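Coagulation factors and regulators were followed in whole blood of rats with and without tissue plasminogen activator (tPA) and middle cerebral artery occlusion (MCAO). They comprised every array probe set annotated to F3, F5, F7, F10, F13a1, Fgl2, Thbd, Tfpi or Procr. Of these 9 genes 8 had a probe set, F7 having none in the annotation, and 15 probe sets were read among the 31042 tested. The 8 genes stood among 14217 with a symbol of their own on the array.

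Clotting starts when tissue factor (F3) binds factor VII (F7) and activates factor X (F10), which with its cofactor factor V (F5) forms thrombin. Thrombin forms fibrin, and factor XIII (F13a1 codes for its A subunit) crosslinks it. Tissue factor pathway inhibitor (Tfpi) blocks the first step, while thrombomodulin (Thbd) and the protein C receptor (Procr) turn thrombin toward activating protein C, which inactivates factor V. Fibrinogen-like protein 2 (Fgl2) is a prothrombinase of activated macrophages. Most plasma clotting proteins are made in liver, whereas platelets carry factor V and both platelets and monocytes carry factor XIII A. A blood RNA array reads only the RNA that blood cells carry.

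All animals were male Sprague-Dawley rats, 6 in each of 7 groups, and blood was drawn by cardiac puncture at 24 h into tubes that fix RNA. The groups were reperfused-MCAO + tPA, reperfused-MCAO, permanent-MCAO + tPA, permanent-MCAO, tPA without MCAO, anesthesia alone, and naive. An intraluminal suture closed the artery under isoflurane, for 2 h followed by 22 h of reperfusion in reperfused-MCAO and for 24 h in permanent-MCAO, and recombinant human tPA was given at 3.3 mg/kg into the peritoneum at 3 h. The groups include no surgery control without occlusion, the model is a suture and not a clot, and the sources do not state whether rats given tPA without MCAO were anesthetised at that time.

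Values were GC-RMA log2 expression values, with array medians between 3.05 and 3.26. In the tPA group without MCAO the hybridization controls averaged 11.2 ± 0.747, with replicate 2 lowest at 9.72, against 12.2 ± 0.221 with anesthesia (SD, n = 6 each). Probe sets of blood cells were bright, for example all 10 measured platelet genes, whereas all 9 measured hepatocyte genes lay under log2 4, the level below which a probe set is called dim here. Of the endothelial list 3 of 9 measured genes reached log2 4, namely Pecam1, Kdr and Tie1.

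Among the clotting genes, 10 of 15 probe sets averaged at least log2 4. The leading probe set of a gene is the one of highest mean. F5 (1374320_at), F13a1 (1374779_at), Fgl2 (1392894_at), Thbd (1368901_at) and Procr (1372729_at) had a bright leading probe set. F3, F10, both probe sets of Tfpi and 1 of 3 of Thbd were dim. Between 2 groups a probe set is called at an unadjusted p of at most 0.01 with a fold of at least 1.2, the thresholds of the second analysis in the methods. Such calls need not pass adjustment over all probe sets, so the adjusted p stands beside each.

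**Figure D1:**
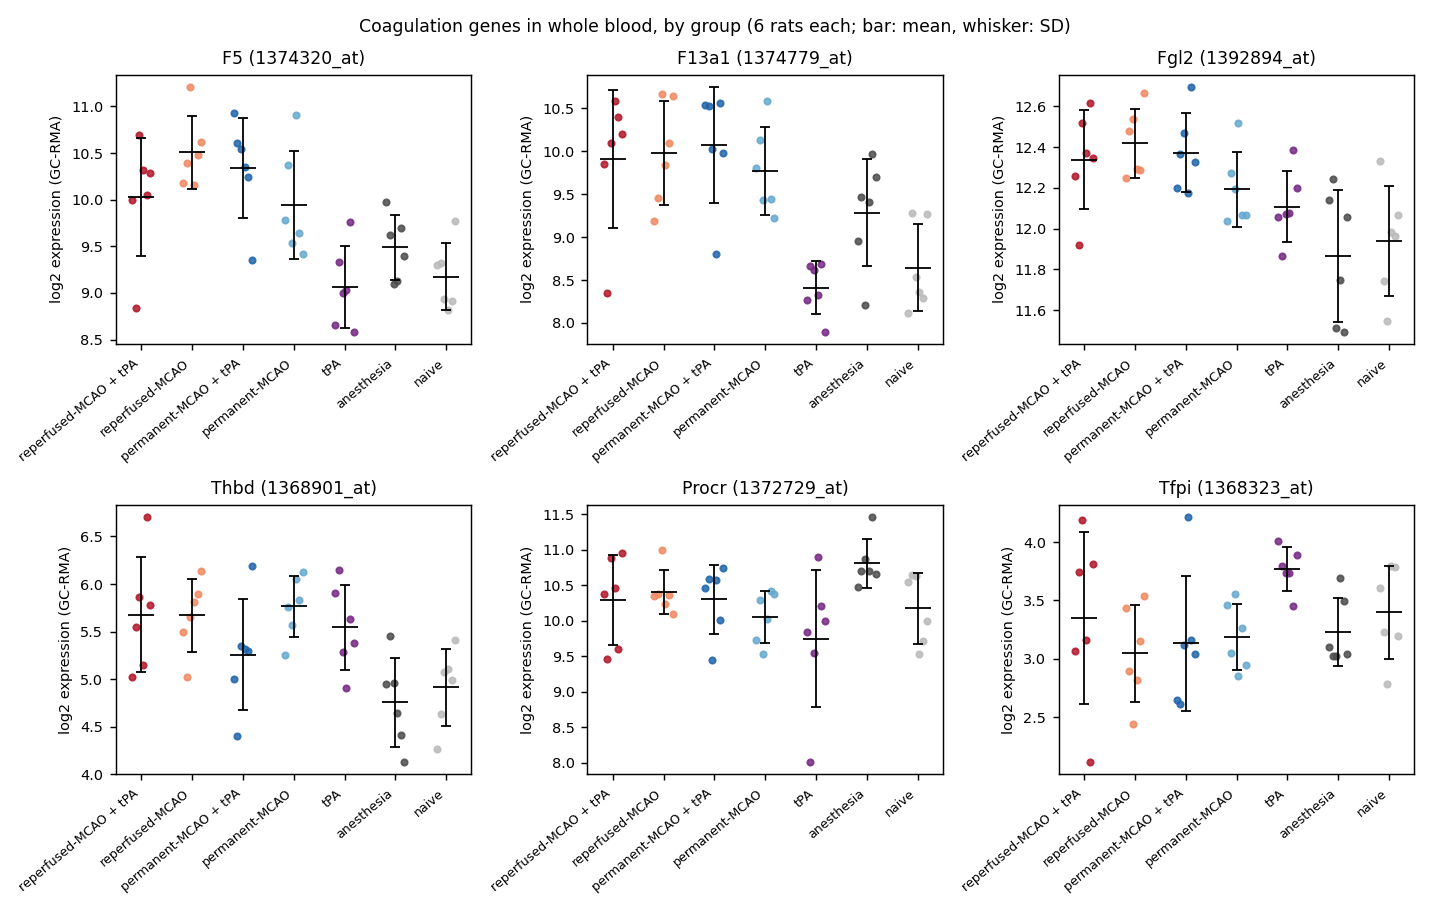
Log2 expression (y axis) of the leading probe sets of F5, F13a1, Fgl2, Thbd, Procr and Tfpi in each of 7 groups (x axis), 1 point per rat, with the mean as a bar and the SD as whiskers (n = 6). F5 in reperfused-MCAO lies between 10.16 and 11.21, above every anesthesia rat, and the lowest Procr value, 8.01, belongs to a rat given tPA without MCAO.

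F5 varied more among the 7 groups than within them (moderated F test in limma, adjusted p = 0.00199). With it, 7 of the 15 probe sets passed adjusted p at most 0.05, against 9.87% of all probe sets. F5 averaged 10.51 in reperfused-MCAO, 10.34 in permanent-MCAO + tPA, 10.03 in reperfused-MCAO + tPA, 9.94 in permanent-MCAO, 9.49 with anesthesia, 9.18 in naive rats and 9.06 with tPA alone. The 4 MCAO groups thus held the highest means, but no neighbours in this order were further apart than 0.87 of the larger SD.

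F5 was higher in reperfused-MCAO. The reperfused-MCAO rats had a lowest value of 10.16, a median of 10.44 and a highest of 11.21, against 9.10, 9.51 and 9.98 with anesthesia. The groups did not overlap, as for 1.54% of probe sets that were higher throughout. F5 rose by 1.02 on the log2 scale (SE 0.203), a fold of 2.03, with adjusted p = 0.0299 in limma and exact permutation p = 0.00216, the smallest that all divisions of 12 rats allow. Leaving out any one rat kept the call, with a difference between 0.88 and 1.12 and an adjusted p of at most 0.0755. Of 10 platelet genes 2 were called higher there, against 4.09% of all probe sets, with a median of 0.45. Their part in the F5 value was not tested.

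In permanent-MCAO F5 had a lowest value of 9.42, a median of 9.72 and a highest of 10.90, which overlapped the anesthesia values, and the difference of 0.46 did not pass (SE 0.262, adjusted p = 0.820). The difference between the kinds of MCAO was not tested. With tPA in reperfused-MCAO F5 ran from 8.84 over a median of 10.17 to 10.69, a difference of -0.48 from untreated reperfused-MCAO (SE 0.291, adjusted p = 0.544). The lowest of these was replicate 2, without which the difference was -0.24 and not called, while with the hybridization controls as a covariate it was -0.75 and called (adjusted p = 0.607). With tPA in permanent-MCAO it ran from 9.35 over 10.45 to 10.93, a difference of 0.39 (SE 0.308, adjusted p = 1). The difference between these tPA effects was -0.87 (SE 0.432, unadjusted p = 0.0570 and adjusted p = 0.978 in limma), which did not pass either, but was -1.20 and called with that covariate (adjusted p = 0.985).

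F13a1 had a similar order. Its leading probe set averaged 10.07 in permanent-MCAO + tPA, 9.98 in reperfused-MCAO, 9.91 in reperfused-MCAO + tPA, 9.77 in permanent-MCAO, 9.29 with anesthesia, 8.64 in naive rats and 8.41 with tPA alone (F test, adjusted p = 0.00266). The gap between anesthesia and naive, 1.03 of the larger SD, was the only one over 1 SD. A second, dimmer probe set (1369724_at) followed it from rat to rat, with a correlation of 0.96 over 42 arrays after each group mean was removed (F test, adjusted p = 0.00151).

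Pair by pair, F13a1 did not pass against anesthesia in either untreated MCAO group. In reperfused-MCAO it had values of 9.19, 9.97 and 10.67 (lowest, median, highest), against 8.20, 9.44 and 9.97 with anesthesia, and the overlapping groups differed by 0.70 (SE 0.341, adjusted p = 0.335). In permanent-MCAO the difference was 0.49 (SE 0.315, adjusted p = 0.887). Anesthesia differed from naive by 0.64, which was not called either (SE 0.315, adjusted p = 0.940).

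In rats given tPA without MCAO, F13a1 had values of 7.90, 8.47 and 8.69, all below the anesthesia median of 9.44. Against anesthesia it was 0.88 lower (SE 0.274, adjusted p = 0.0595 in limma, exact permutation p = 0.0195). Naive rats had values of 8.12, 8.45 and 9.28, and tPA alone was not tested against naive. The call was lost in 10 of 12 omissions of an array, all but those of anesthesia replicates 1 and 3, and the difference ran between -1.09 and -0.74 over the 12. It was also lost with the hybridization controls as a covariate, the replicate number as a block, the methods' t-test and 1 fit over all groups, at differences between -0.93 and -0.88. Probe set 1369724_at fell by 0.68 and was not called (SE 0.220, adjusted p = 0.0657 in limma). It was called with arrays centred on the median, after quantile normalization and among bright probe sets. Of all probe sets 13.7% were called with tPA alone, in either direction. The platelet list moved with F13a1, 4 of 10 genes being called lower with a median difference of -0.56. Its part in the F13a1 value was not tested, and in whole blood fewer cells of a type and less RNA per cell cannot be told apart.

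Promoters of the 3 bright genes with a window in the RefSeq table are shown because these genes carry several of the calls described here. Each runs 5′ to 3′ from 250 bases before to 50 bases after the start site (RefSeq, GRCr8), at chr13:79046407-79046706 for F5, chr17:28020947-28021246 for F13a1 and chr3:164714477-164714776 for Procr, all on the plus strand. Capitals mark AGGAAG or its reverse complement CTTCCT, the core of many ETS family sites.
F5: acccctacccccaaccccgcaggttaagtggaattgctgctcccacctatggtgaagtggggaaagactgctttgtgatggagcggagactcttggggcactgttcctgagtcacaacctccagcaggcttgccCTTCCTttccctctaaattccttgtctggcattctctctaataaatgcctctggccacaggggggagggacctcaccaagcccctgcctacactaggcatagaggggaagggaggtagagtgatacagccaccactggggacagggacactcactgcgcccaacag
F13a1: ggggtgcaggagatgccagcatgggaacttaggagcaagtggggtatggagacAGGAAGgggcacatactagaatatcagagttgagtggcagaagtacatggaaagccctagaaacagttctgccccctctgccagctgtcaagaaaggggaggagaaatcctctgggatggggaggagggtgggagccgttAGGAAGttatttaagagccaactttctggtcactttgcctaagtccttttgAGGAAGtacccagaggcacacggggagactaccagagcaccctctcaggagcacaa
Procr: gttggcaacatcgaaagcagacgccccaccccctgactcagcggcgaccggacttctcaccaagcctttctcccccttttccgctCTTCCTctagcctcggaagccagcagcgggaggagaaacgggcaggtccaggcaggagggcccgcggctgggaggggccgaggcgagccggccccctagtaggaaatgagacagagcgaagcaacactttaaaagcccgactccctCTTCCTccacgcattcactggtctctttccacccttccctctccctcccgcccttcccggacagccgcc
F13a1 held 3 matches, Procr 2 and F5 1, and 34.5% of 33469 promoter windows of this length held at least 1. GATAA (reverse complement TTATC), the core of GATA sites, was in none of these windows and in 26.5% of all. A match describes letters and is not shown to be a bound site. Windows were given for 6 of the 9 genes, and F3, Fgl2 and Thbd had no entry.

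F3 and F10, which start and carry forward the clotting cascade, were dim in every group. F3 lay between 2.56 and 2.71 over all 42 rats and F10 between 2.05 and 2.22. Neither passed the F test (adjusted p = 0.336 for F3 and 0.450 for F10). F3 passed it only with arrays centred on the median (F test, adjusted p = 0.0166). Against anesthesia, F3 differed by -0.06 with tPA alone (SE 0.019, unadjusted p = 0.00947 and adjusted p = 0.0625 in limma, exact permutation p = 0.00649). The fold was too small for a call. Whether so small a shift at such dim signals reflects a change in RNA was not tested.

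Fgl2 had 4 bright probe sets, which correlated with each other at 0.39 to 0.92 within groups over 42 arrays. The brightest (1392894_at) averaged 12.42 in reperfused-MCAO, 12.37 in permanent-MCAO + tPA, 12.34 in reperfused-MCAO + tPA, 12.19 in permanent-MCAO, 12.11 with tPA alone, 11.94 in naive rats and 11.87 with anesthesia (F test, adjusted p = 0.0122). No neighbours were further apart than 0.62 of the larger SD. Probe sets 1383516_at and 1370623_at also passed (adjusted p = 0.0240 and 0.0343), and 1386637_at did not (adjusted p = 0.0755).

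Fgl2 was higher in reperfused-MCAO by its brightest probe set. Values were 12.25, 12.38 and 12.67 in reperfused-MCAO, against 11.49, 11.90 and 12.24 with anesthesia (lowest, median, highest), so the groups did not overlap, as for the 1.54% of probe sets above. The rise was 0.55 (SE 0.144, adjusted p = 0.0814, exact permutation p = 0.00216), and it was called in each of 12 omissions. The other 3 probe sets differed by 0.55, 0.39 and 0.23 without being called. In permanent-MCAO the brightest differed by 0.33 (SE 0.146, adjusted p = 0.643).

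With tPA in permanent-MCAO, 1 of the 15 clotting probe sets was called, against 0.322% of all, and it was an Fgl2 probe set. 1383516_at had values of 9.42, 10.39 and 10.75 in permanent-MCAO + tPA, against 8.66, 9.30 and 9.93 in permanent-MCAO. It rose by 0.89 (SE 0.283, p = 0.00960 and adjusted p = 1 in limma, exact permutation p = 0.0173). The groups overlapped, although all 6 treated rats lay above the untreated median. In 9 of 12 omissions the call was lost, all but those of permanent-MCAO replicate 4 and permanent-MCAO + tPA replicates 4 and 6, with differences between 0.76 and 1.04.

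For probe set 1386637_at of Fgl2 the difference was larger and more variable. It had values of 7.30, 8.70 and 9.27 in permanent-MCAO + tPA and 4.94, 7.10 and 8.04 in permanent-MCAO, a difference of 1.46 that was not called (SE 0.511, adjusted p = 1 in limma, exact permutation p = 0.0173). The lowest of these values was 1 permanent-MCAO rat, replicate 6, and without it the difference was 1.06. The remaining probe sets of Fgl2 differed by 0.18 (1392894_at) and 0.27 (1370623_at). Of all pairs of Fgl2 probe sets, 1383516_at and 1386637_at had the highest correlation, 0.92, and 1392894_at and 1386637_at the lowest, 0.39.

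**Figure D2:**
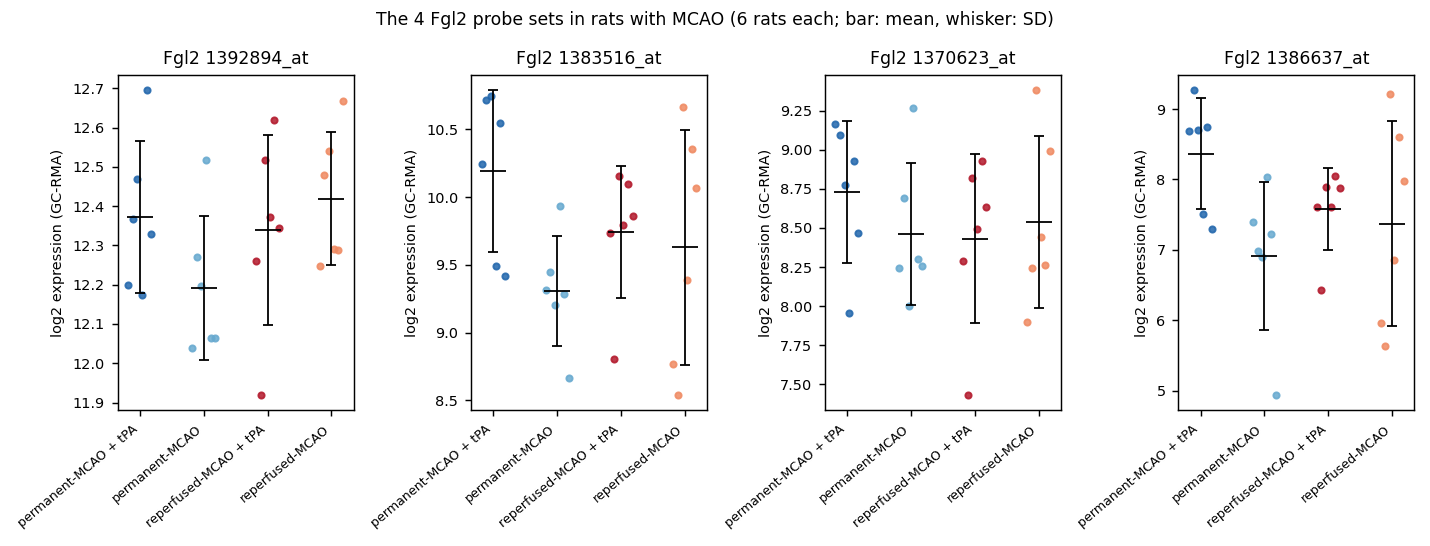
Log2 expression (y axis, a separate scale for each panel) of the 4 Fgl2 probe sets in the 4 MCAO groups (x axis), 1 point per rat, with mean and SD (n = 6). For 1386637_at the means are 8.37 in permanent-MCAO + tPA and 6.91 in permanent-MCAO, while for 1392894_at they are 12.37 and 12.19.

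Thbd, the thrombin receptor that turns thrombin toward protein C, was higher in both untreated MCAO groups. In permanent-MCAO it had values of 5.25, 5.80 and 6.13 (lowest, median, highest), and in reperfused-MCAO 5.02, 5.73 and 6.14, against 4.13, 4.79 and 5.46 with anesthesia. All 6 rats of each MCAO group lay above the anesthesia median, and the ranges overlapped. Thbd rose by 1.01 in permanent-MCAO (SE 0.221, adjusted p = 0.117, exact permutation p = 0.00433) and by 0.91 in reperfused-MCAO (SE 0.237, adjusted p = 0.0806, exact permutation p = 0.00433), and both were called in each of 12 omissions. With the hybridization controls as a covariate the reperfused-MCAO difference was 0.85 and not called.

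In rats given tPA without MCAO, Thbd had values of 4.91, 5.51 and 6.14. The difference of 0.79 from anesthesia just missed the call (SE 0.253, adjusted p = 0.0646 in limma, exact permutation p = 0.0217). It was called in 1 fit over all groups (adjusted p = 0.0449 in limma), with the replicate number as a block and among bright probe sets. With the hybridization controls as a covariate it was not called. Over the 7 groups Thbd averaged 5.77 in permanent-MCAO, 5.68 in reperfused-MCAO + tPA, 5.67 in reperfused-MCAO, 5.54 with tPA alone, 5.26 in permanent-MCAO + tPA, 4.91 in naive rats and 4.76 with anesthesia (F test, adjusted p = 0.0261). No neighbours were further apart than 0.59 of the larger SD. With tPA added, Thbd differed by 0.01 in reperfused-MCAO (SE 0.281) and by -0.51 in permanent-MCAO (SE 0.260, adjusted p = 1), and neither was called.

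The other Thbd probe sets were not called. 1375951_at, just above log2 4 on average, differed by 0.52 in permanent-MCAO (SE 0.320) and by 0.20 in reperfused-MCAO (SE 0.366), both uncalled, and correlated at 0.58 with the leading probe set within groups. 1368900_at was dim and stayed between 2.17 and 2.26.

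Monocyte genes moved beside Thbd. Of 11 measured monocyte genes, 3 were called higher in permanent-MCAO (median 0.25), 5 in reperfused-MCAO (median 0.43) and 3 with tPA alone (median 0.31). The mean of the 9 bright ones ran from 9.49 to 9.99 in permanent-MCAO, from 9.56 to 10.25 in reperfused-MCAO and from 9.31 to 10.02 with tPA alone, against 9.08 to 9.39 with anesthesia. Cx3cr1 and Ms4a7 of the list were dim, at 3.32 and 2.52. Of 9 neutrophil genes, 2 were called higher in permanent-MCAO (median 0.41), 2 in reperfused-MCAO (median 0.77) and 1 with tPA alone (median 0.04). Of all probe sets 2.78% were called in either direction in permanent-MCAO, 6% in reperfused-MCAO and 13.7% with tPA alone. The part of monocytes and neutrophils in the Thbd values was not tested.

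Procr, the receptor that presents protein C to thrombin and thrombomodulin, was lower in permanent-MCAO than with anesthesia. It had values of 9.52, 10.15 and 10.41 in permanent-MCAO, against 10.47, 10.70 and 11.46 with anesthesia. No rats of these groups overlapped, as for 0.19% of probe sets that were lower throughout. Naive rats had 9.53, 10.27 and 10.64, near the values in permanent-MCAO. Procr fell by 0.75 (SE 0.196, adjusted p = 0.198, exact permutation p = 0.00216), and was called in each of 12 omissions. In 1 fit over all groups, which share 1 spread, its SE was 0.317 and it was not called. Procr and Thbd were the 2 of 15 probe sets called in this comparison, against 2.78% of all. The erythroid list had 0 of 9 genes called by limma, and 1 at an unadjusted p under 0.05, at a median of -0.09, and its part in the Procr value was not tested.

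The anesthesia rats had the highest mean Procr of all groups. The means were 10.81 with anesthesia, 10.40 in reperfused-MCAO, 10.30 in permanent-MCAO + tPA, 10.29 in reperfused-MCAO + tPA, 10.17 in naive rats, 10.06 in permanent-MCAO and 9.75 with tPA alone. The step below anesthesia was 1.18 of the larger SD and the other neighbours were closer than 1 SD. Anesthesia differed from naive by 0.64 (SE 0.236, adjusted p = 0.940), and the F test over all groups did not pass (adjusted p = 0.238).

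With tPA alone Procr had values of 8.01, 9.92 and 10.89, against 10.47, 10.70 and 11.46 with anesthesia. Naive rats had 9.53, 10.27 and 10.64, and tPA alone was not tested against naive. The difference of -1.06 from anesthesia was not called (SE 0.401, adjusted p = 0.102 in limma, exact permutation p = 0.0130). In 1 fit over all groups it was called (SE 0.317, adjusted p = 0.0230 in limma), and with the hybridization controls as a covariate it was not. The lowest rat, replicate 2, also had the lowest hybridization controls, and without it the difference was -0.71. Erythroid genes were lower too, 4 of 9 being called with a median of -1.45, against 13.7% of all probe sets called in either direction. Over 42 arrays, within groups, Procr correlated at 0.69 with the hybridization controls. The part of either in the Procr values was not tested.

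Tfpi was dim, its leading probe set (1368323_at) averaging 3.77 with tPA alone, 3.40 in naive rats, 3.35 in reperfused-MCAO + tPA, 3.23 with anesthesia, 3.19 in permanent-MCAO, 3.13 in permanent-MCAO + tPA and 3.05 in reperfused-MCAO. With tPA alone the values were 3.45, 3.77 and 4.01, against 3.02, 3.07 and 3.69 with anesthesia. Tfpi rose by 0.54 (SE 0.136, adjusted p = 0.0295, exact permutation p = 0.0108). The call was lost after quantile normalization (0.36), with the hybridization controls as a covariate (0.51), with the replicate number as a block, at a fold of 1.5 and in 1 fit over all groups (SE 0.256). T cell genes moved with it, 9 of 10 being called higher with a median of 0.74. Their mean ran from 10.35 to 10.78 with tPA alone, against 9.46 to 9.97 with anesthesia. Within groups Tfpi correlated at 0.43 with them, at -0.42 with platelet genes and at -0.36 with the hybridization controls. The part of each in the Tfpi value was not tested. Tfpi and F13a1 were the 2 of 15 probe sets called in this comparison, against 13.7% of all, which is about the same share. The second Tfpi probe set (1389780_at) differed by -0.05, and the pair correlated at -0.13 within groups.

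**Figure D3:**
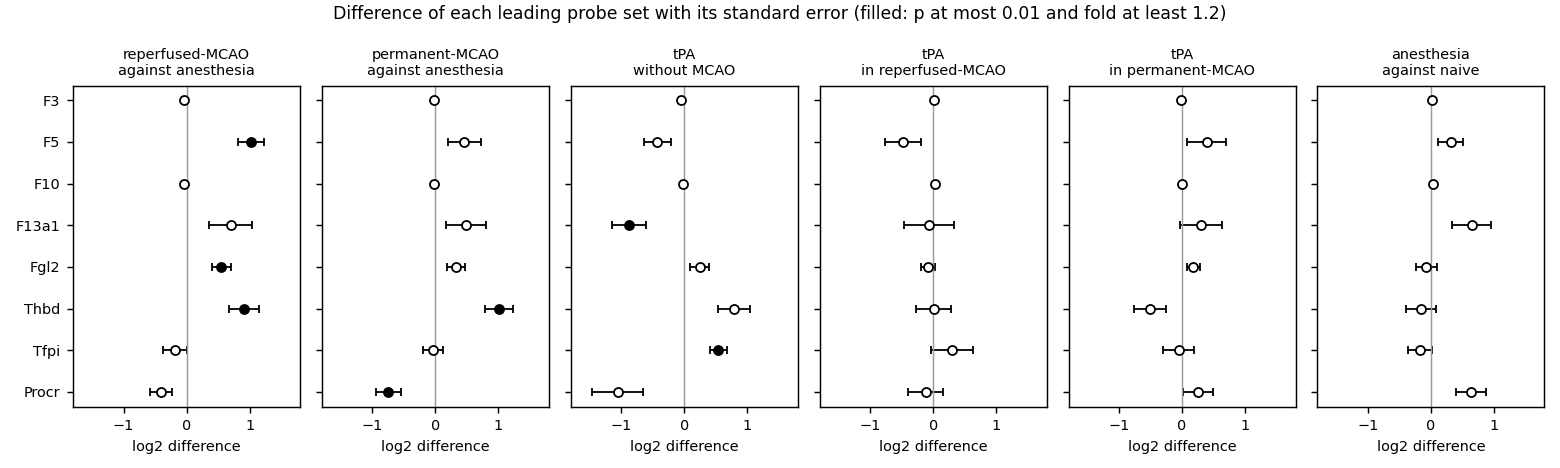
Log2 difference (x axis) with its standard error for the leading probe set of each of 8 genes (y axis) in 6 comparisons, filled where p was at most 0.01 and the fold at least 1.2. F5, Fgl2 and Thbd are filled in reperfused-MCAO against anesthesia, Thbd and Procr in permanent-MCAO against anesthesia, F13a1 and Tfpi in tPA without MCAO, and none in tPA in reperfused-MCAO, tPA in permanent-MCAO or anesthesia against naive.

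Side by side, reperfused-MCAO called F5, Fgl2 and Thbd, all higher, 3 of 15 probe sets against 6% of all in either direction and 4.09% higher. This comparison, that of permanent-MCAO and that of tPA alone share the same anesthesia rats. With tPA in reperfused-MCAO 0 of 15 were called by limma, against 0.722% of all, and 0 had an unadjusted p of at most 0.05. Anesthesia against naive called 0 of 15 in limma, against 0.821%, with 1 at an unadjusted p of at most 0.05. The difference between the tPA effects in both kinds of MCAO called 0 of 15 in limma, against 0.296%, and 0 at an unadjusted p of at most 0.05. The methods' t-test called 0 in these 3 comparisons as well.

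Averaged over rats with and without tPA, MCAO went with higher F5, F13a1, Fgl2 and Thbd, while F3 and F10 were not called. This fit used all 42 rats with terms for tPA, any MCAO, anesthesia and tPA by MCAO, and called a probe set at p at most 0.05 with a fold of at least 1.2. It called 9 of 15 probe sets, against 15.4% of all, and 8 of them were higher, against 6.02% of all. At adjusted p at most 0.05 it was 6 of 15, against 7.86%. The median was 0.34 over the 15 probe sets, of which Fgl2 has 4, and 0.17 over the leading probe sets of the 8 genes, beside 0.00250 over all probe sets.

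The rises lay in 4 genes. F13a1 rose by 1.09 (SE 0.204, adjusted p = 0.00119), with a fold of 2.29 in its other probe set (adjusted p = 0.000490), F5 by 0.93 (SE 0.175, adjusted p = 0.00123), and the brightest Fgl2 probe set by 0.34 (SE 0.0811, adjusted p = 0.00683). The other Fgl2 probe sets rose by 0.62, 0.69 and 0.80, the last with adjusted p = 0.0988, and Thbd by 0.44 (SE 0.165, adjusted p = 0.0924). For Thbd the rise lay in rats without tPA. Among rats given tPA it averaged 5.68 in reperfused-MCAO, 5.26 in permanent-MCAO and 5.54 without MCAO. Tfpi fell by 0.32 (SE 0.154, adjusted p = 0.221), a dim probe set whose call was lost in 21 of 42 omissions.

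Restricted to rats without tPA, with both MCAO groups set against anesthesia, F5 was still called. The leading F13a1 probe set differed by 0.59 and was not called, while 1369724_at kept its call. Fgl2 differed by 0.23 in 1383516_at, which was not called, and by -0.0015 in 1386637_at, but 1392894_at and 1370623_at kept their calls. Thbd also kept its call. Procr, not called in the averaged fit, was called here at -0.58 (SE 0.165, adjusted p = 0.0778 in limma). Platelet genes moved up with F5 and F13a1 in the averaged fit, 8 of 10 being called higher with a median of 0.63. Their mean ran from 10.03 to 11.18 in reperfused-MCAO and from 10.19 to 11.03 in permanent-MCAO, against 9.96 to 10.56 with anesthesia. Other cell lists moved in this fit as well, with 10 of 10 T cell genes called lower (median -0.49) and, of 9 neutrophil genes, 4 higher and 1 lower (median 0.37). Of 9 erythroid genes 5 were called higher (median 0.36), and of 11 monocyte genes 3 higher and 1 lower (median 0.06). Of all probe sets 15.4% were called in the averaged fit, in either direction. The part of these cells in the clotting values was not tested.

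The averaged tPA effect called 2 of 15, against 12% of all. Procr fell by 0.50 (SE 0.192, adjusted p = 0.133) and Tfpi rose by 0.33 (SE 0.154, adjusted p = 0.235). Without tPA replicate 2 the Procr difference was -0.32 and no longer called. In the 4 MCAO groups alone it was 0.0652, and with the hybridization controls as a covariate 0.0148. The call of Tfpi was lost in 11 of 42 omissions, and T cell genes were higher here too, 9 of 10 being called with a median of 0.36.

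The tPA effect with MCAO minus that without MCAO was called for 6 of 15, against 21% of all. Thbd was at -1.04 (SE 0.329, adjusted p = 0.0408), the only one of the 15 to pass adjusted p at most 0.05, against 9.47% of all. Procr was at 1.12 (adjusted p = 0.0548), Fgl2 at 1.61 (1386637_at, adjusted p = 0.0803) and 0.92 (1383516_at, adjusted p = 0.103), and F13a1 at 0.99 and 0.91 (adjusted p = 0.104 and 0.124). The tPA effect without MCAO in this term rests on the tPA group with the low hybridization controls. With those controls as a covariate 0 of the 6 were called. Procr was then at 0.13, Thbd at -0.75, Fgl2 at 0.94 and 0.55, and F13a1 at 0.62 and 0.43. With the tPA group coded as not anesthetised Thbd and 1386637_at of Fgl2 kept their calls. Erythroid genes moved with Procr in this term, 8 of 9 being called positive with a median of 1.33. Platelet genes moved with F13a1, 4 of 10 being positive (median 0.64), and monocyte genes with Thbd, 5 of 11 being negative (median -0.43), as were 8 of 10 T cell genes. The part of these cells was not tested.

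The rest of the pathway was mostly dim. Of 30 further clotting genes 26 had a probe set and 6 reached log2 4. MCAO on average called 2 of the 26, against 15.4% of all, both higher: Vwf, which ties platelets to the vessel wall and carries factor VIII, at 0.84 (adjusted p = 0.00703), and the thrombin receptor F2rl2 at 0.82 (adjusted p = 0.0123). F8, the gene of factor VIII itself, rose by 1.08 in reperfused-MCAO (adjusted p = 0.109) and by 1.11 with tPA alone (adjusted p = 0.0405). Ggcx, the carboxylase that readies vitamin K dependent factors, was dim and rose by 0.51 with tPA alone (adjusted p = 0.0298) and by 0.29 in the averaged tPA effect (adjusted p = 0.00992). These were 1 of 26 in reperfused-MCAO, against 6% of all, 2 with tPA alone, against 13.7%, and 1 in the averaged tPA effect, against 12%.

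In the tPA by MCAO term F8 was at -1.56 (adjusted p = 0.0252), Ggcx at -0.42 (adjusted p = 0.0277) and Pros1, which codes for the protein C cofactor protein S, at 0.49 (adjusted p = 0.154), 3 of 26 against 21% of all. Of the 26, 0 were called by limma in permanent-MCAO, with tPA in either kind of MCAO, in anesthesia against naive or in the difference between the tPA effects. At an unadjusted p under 0.05 there was 1 in permanent-MCAO, 2 with tPA in reperfused-MCAO, 1 with tPA in permanent-MCAO and 0 in the other comparisons named. The median over the 26 was 0.02 in the averaged MCAO effect, beside 0.17 over the leading probe sets of the 8 genes above. Only 6 of the 26 reached log2 4, so these medians are over sets of unlike brightness.

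From rat to rat within groups, F5 and F13a1 went with platelet genes. These correlations over 42 arrays, with each group mean removed, are descriptions, since values of 1 array share its RNA, labeling and cell mix. F5 correlated at 0.84 with the mean of the 10 platelet genes (Spearman 0.82, and 0.79 without the 2 rats farthest out), and between 0.64 and 0.97 in the single groups. F13a1 correlated at 0.78 (Spearman 0.76, 0.75 without the 2 rats), with 0.31 to 0.96 in the groups. F5 and F13a1 correlated with each other at 0.66.

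Of all bright genes, those most like F5 were Itga2b at 0.90, which codes for a platelet integrin subunit, Ptgs1 at 0.88, the cyclooxygenase that platelets use, and Clu at 0.85, a chaperone found in platelet granules. Most like F13a1 were P2ry12 at 0.89, the ADP receptor of platelets, Pdlim1 at 0.86 and Ptgs1 at 0.83. Reperfused-MCAO + tPA replicate 2 was lowest in its group in F5 (8.84), in F13a1 (8.35) and in the platelet mean (9.53).

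The brightest Fgl2 probe set correlated at 0.62 with platelet genes (Spearman 0.57, 0.54 without 2 rats, 0.12 to 0.95 in the groups). With monocyte genes it correlated at 0.23 (-0.56 to 0.76 in the groups), and its nearest genes were Rac1, Twf1 and Pf4, each at 0.66. Thbd correlated at 0.53 with monocyte genes (Spearman 0.45, 0.37 without 2 rats), positive in 6 of 7 groups but between -0.58 and 0.87 in the single groups. It correlated at 0.30 with neutrophil genes, and was most like Npc2, Adam15 and Erf, each at 0.74. Procr correlated at 0.76 with erythroid genes (Spearman 0.66, 0.59 without 2 rats, positive in 7 of 7 groups). Its nearest genes were Rec114, Epb42, which codes for a red cell membrane protein, and Dhrs11, each at 0.79. Itga2b and Pf4 are themselves on the platelet list, and Epb42 on the erythroid list.

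**Figure D4:**
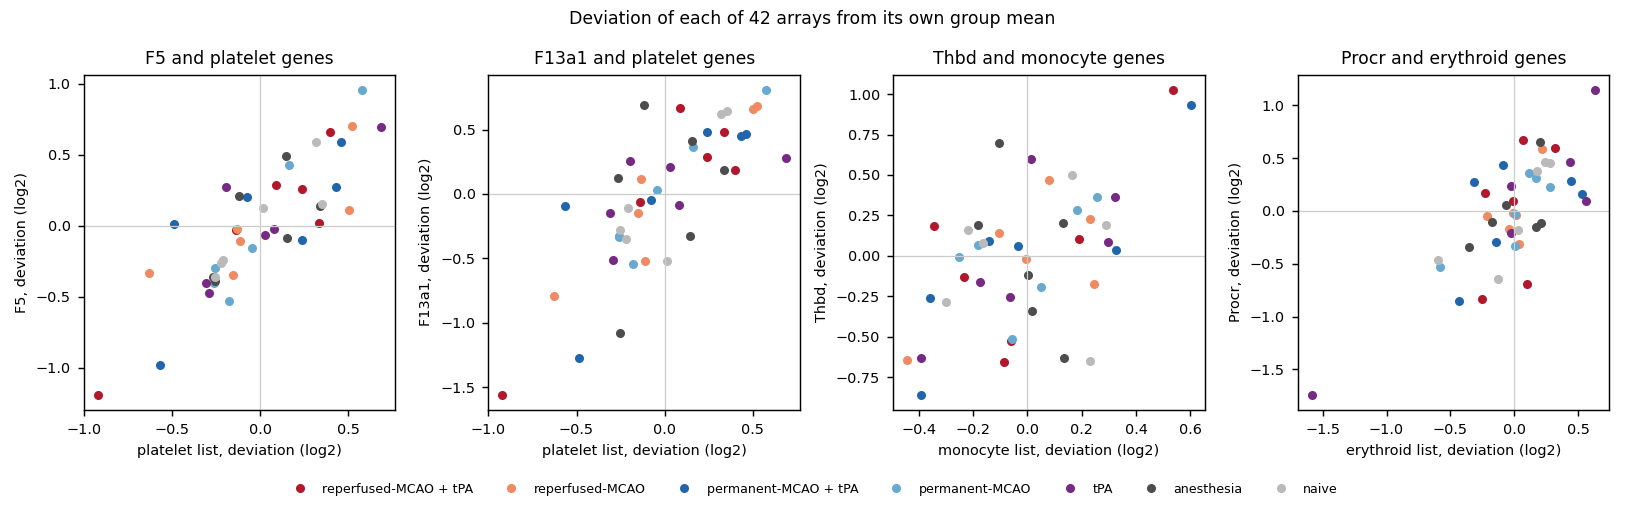
Deviation of each of 42 arrays from its group mean, in log2 units, for F5 and F13a1 (y axes) against the platelet list, Thbd against the monocyte list and Procr against the erythroid list (x axes), coloured by group. Points rise together most tightly for F5 (correlation 0.84) and most loosely for Thbd (0.53), and 1 rat given tPA without MCAO lies far down in the Procr panel.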

How the data were processed

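Whole blood RNA of 42 rats was amplified with a whole blood reagent kit and hybridized to Affymetrix rat arrays. The authors summarised the scans by GC-RMA in Partek Genomics Suite and deposited log2 values, so background and scale were set upstream. The files give no read depth, and the number of arrays limits the precision. Of 31099 rows 57 control probe sets were set aside. Fits used limma 3.58.1 in R 4.3.3, with p values adjusted by Benjamini-Hochberg over all 31042 probe sets. The averaged and interaction terms follow the first analysis of the methods (p at most 0.05, fold at least 1.2), pairs the second (12 arrays, p at most 0.01), and the difference of tPA effects used 24 arrays. Exact p values are two-sided over all divisions of the rats. Scripts were tested on simulated data. Numbers in the labels (1 to 6) were not used as pairs, since same-numbered rats did not deviate together.

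All 9 genes are named with each probe set, pathway genes only where called, and 3 most alike genes per bright gene. Members, lists and the hybridization covariate were chosen with earlier results of these data known. Of 8 cell lists written from general knowledge, 7 are used. Promoters were read with Python 3.11.15, and figures drawn with matplotlib 3.10.9. Alternatives are given at the end.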

Additional observations from a re-analysis of the deposited data

Results flagged for a closer look

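Of 105 sets of 6 rats (15 probe sets in 7 groups) 12 held a rat far from the other 5. Chance gives about 1 in 20 for a single set. The sets share rats and genes, so no excess over that rate can be read from the count. Reperfused-MCAO + tPA replicate 2 accounts for 5 of the 12: F5 at 8.84, F13a1 at 8.35 and 5.56, and Fgl2 at 8.81 (1383516_at) and 6.43 (1386637_at), each the lowest of its group. Permanent-MCAO + tPA replicate 4 was far below the others in F13a1 (8.80) and far above them in the dim Tfpi (4.21). The remaining far rats were permanent-MCAO replicate 6 in Fgl2 (1386637_at, 4.94), reperfused-MCAO + tPA replicate 5 in Thbd (1375951_at, 5.72), reperfused-MCAO replicate 3 in Procr (10.99), permanent-MCAO + tPA replicate 1 in the dim Tfpi probe set 1389780_at (2.65) and naive replicate 2 in the dim F3 (2.70).

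By 1 model the effect of tPA differed between rats with and without MCAO, by the interaction test in limma at p at most 0.05 and a fold of at least 1.2, for 6 probe sets: Thbd by -1.04, Procr by 1.12, Fgl2 by 1.61 and 0.92, and F13a1 by 0.99 and 0.91. These were 6 of 15, against 21% of all probe sets. Only Thbd passed adjustment over all probe sets (adjusted p = 0.0408), against 9.47% of all. With the hybridization controls as a covariate 0 of the 6 were called and Procr was at 0.13, and with the tPA group coded as not anesthetised 2 were, Thbd and Fgl2 1386637_at.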

How the results depend on the processing

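Over the 32 called results of clotting probe sets and 282 alternatives, leave-outs aside, 226 kept their call, 53 lost it and 3 changed sign. Of 133 uncalled results 24 of 1148 alternatives were called. F5 kept its calls in the averaged MCAO effect and in reperfused-MCAO under every alternative run, and Thbd in permanent-MCAO likewise.

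Counts of called clotting probe sets moved as follows, and the cause was not tested. With the hybridization controls as a covariate the F test called 4 in place of 7, the averaged tPA effect 0 in place of 2, the interaction 0 in place of 6, tPA without MCAO 0 in place of 2, tPA in reperfused-MCAO 1 in place of 0 and the difference of tPA effects 1 in place of 0, both times F5. The averaged tPA effect called 1 after quantile normalization, 1 among probe sets of at least log2 4, and 0 at a fold of 1.5, in the 4 MCAO groups alone or with the tPA group coded as not anesthetised, a coding that left 2 in the interaction. tPA in permanent-MCAO called 0 after quantile normalization or with the methods' t-test, and 2 among bright probe sets or in 1 fit over all groups. tPA without MCAO called 1 with the methods' t-test and 1 at a fold of 1.5, and permanent-MCAO against anesthesia 1 in 1 fit over all groups. That fit left the count of tPA without MCAO at 2, but the probe sets were those of Procr and Thbd in place of F13a1 and Tfpi. Sign changes were Procr in the averaged tPA effect, 0.0148 with the covariate and 0.0652 in the 4 MCAO groups, and Fgl2 1386637_at in the averaged MCAO effect, -0.0015 without tPA groups.

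With the replicate number as a block, tPA in permanent-MCAO called 0, tPA without MCAO 1 (Thbd, while F13a1 and Tfpi lost their calls) and reperfused-MCAO 2 (Thbd lost its call). The numbers do not pair the rats: same-numbered rats correlated at a mean of -0.03 over 126 pairs, and 7 of 42 arrays correlated best with their own number.

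Leaving out each array in turn, the counts ran from 5 to 8 (F test), 1 to 3 (averaged tPA), 8 to 9 (averaged MCAO), 5 to 6 (interaction), 0 to 0 (tPA in reperfused-MCAO), 0 to 3 (tPA in permanent-MCAO), 1 to 3 (tPA without MCAO), 3 to 4 (reperfused-MCAO), 2 to 2 (permanent-MCAO), 0 to 1 (anesthesia against naive) and 0 to 0 (difference). In the F test the calls of Fgl2 1370623_at were lost in 9 of 42 omissions, of 1383516_at in 2 and of Thbd in 2.

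Over all probe sets the F test called 3063, but 9797 with centred arrays, 6574 with array weights, 581 with the covariate and 1532 without tPA replicate 2. The covariate called 504 in place of 3711 (averaged tPA), 2933 in place of 4785 (averaged MCAO), 1909 in place of 6529 (interaction) and 803 in place of 4267 (tPA without MCAO). With array weights anesthesia against naive called 726 in place of 255, and 971 without anesthesia replicate 1. tPA in permanent-MCAO called 100, between 45 (fold of 1.5) and 245 (1 fit over all groups), tPA in reperfused-MCAO 224, between 66 (fold of 1.5) and 439 (covariate), and the difference 92, between 49 (bright probe sets) and 370 (array weights). A fold of 1.5 left 850 (averaged tPA), 1075 (averaged MCAO), 4332 (interaction), 2726 (tPA without MCAO), 556 (permanent-MCAO) and 74 (anesthesia against naive). The other coding of anesthesia called 1681, 2427 and 3908 for tPA, MCAO and interaction.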
